A study of Gallus gallus with 12 samples.

Results

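Neurofilament subunits, a neuronal β-tubulin, stathmins, microtubule-associated proteins and a growth cone protein form the cytoskeleton of a young neuron. The genes described here were NEFM, NEFL, TAGLN3, TUBB3, STMN1, STMN2, DCX, MAP2, MAP1B and GAP43. They were taken as every probe set whose symbol in the annotation of the Affymetrix chicken array was 1 of these 10 names. That gave 20 of the 37693 tested probe sets: 5 for DCX, 3 for NEFM, 2 each for STMN1, STMN2, MAP2 and MAP1B, and 1 each for NEFL, TAGLN3, TUBB3 and GAP43. Each gene is led by its probe set with the highest mean over all arrays, called its representative.

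The arrays measured RNA of GFP-positive cells sorted from chick neural tubes 6 hours after a plasmid was electroporated in the egg. There were 4 arrays with pCIGNEUROG2-GFP (NEUROG2), 4 with pCIGNEUROG2AQ-GFP (NEUROG2AQ) and 4 with the GFP vector that the labels spell pGIG-GFP (control). Each array was a biological replicate made from a pool of 20 embryos. The embryos were at day 1.5, stages HH10 to HH11, with 11 to 15 somites in the series description and 13 to 15 in the sample protocols. All groups shared the electroporation and the GFP sort, and the strain, the sex of the embryos and the promoter of the plasmids were not given in the sources used here. NEUROG2 is a bHLH transcription factor of the proneural class, which turns dividing neural progenitors into neurons. NEUROG2AQ is named but not described in the labels, and in other work the name denotes a form altered in the basic region that binds DNA.

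Neurofilaments are the intermediate filaments of axons and are assembled from light, medium and heavy subunits. Microtubules are polymers of α- and β-tubulin, which stathmins disassemble and which doublecortin and the MAP proteins bind and stabilise. When a neural tube progenitor leaves the cell cycle, its progenitor filaments of nestin and vimentin give way to neuronal tubulin and neurofilaments, and an axon and dendrites grow out.

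Array medians lay between 2.81 and 2.90 on the log2 scale and no 2 arrays held identical values. By limma with Benjamini-Hochberg adjustment over all 37693 probe sets and a threshold of 0.05, 6.67% of probe sets passed for NEUROG2 against control, 0.0663% for NEUROG2AQ against control and 6.06% for NEUROG2 against NEUROG2AQ. Control replicate 1 had the highest mean signal of somite and muscle markers of any array, 3.79 against 2.66 to 3.24 in the NEUROG2 and NEUROG2AQ arrays. It was also highest for notochord and floor plate markers, 5.28 against 4.35 to 4.65 in those arrays, and for endoderm and lateral plate markers, 3.18 against 2.81 to 3.04. Another control array was highest for blood and endothelial markers, 3.81 against 2.76 to 3.06 in those arrays. The 3' minus 5' signal of the actin and EF1A control probe sets is a sign of RNA quality, larger for weaker 5' signal. It was 1.52 in NEUROG2AQ replicate 4, the smallest of the 12 arrays, against 2.03 to 2.14 in the other NEUROG2AQ arrays. The control group spanned 1.72 to 1.98 and the NEUROG2 group 1.59 to 1.90, so the other NEUROG2AQ arrays exceeded both ranges. Member counts below are therefore also given without control replicate 1 and NEUROG2AQ replicate 4, a setting chosen after the data were seen.

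At 6 hours after electroporation some cytoskeleton genes rose many-fold with NEUROG2, some rose modestly and some did not pass the test. TAGLN3 rose 9.62-fold, NEFM 7.09-fold and NEFL 5.43-fold, while MAP2 rose 1.67-fold and TUBB3 1.51-fold. DCX, STMN1, STMN2, MAP1B and GAP43 did not pass. DCX (log2 0.52 ± 0.15, limma adjusted p = 0.0604) and TUBB3 (0.60 ± 0.15, adjusted p = 0.0264) had similar differences on either side of the threshold. By their representatives, 5 of the 10 genes rose with NEUROG2 and 0 fell by the limma test. Over the array, 5.21% of 13008 named genes rose in this comparison by the same adjusted threshold. At an unadjusted p under 0.05 the counts of the 10 genes were 6 and 0. No share over the array was taken at that level, here or below. Unadjusted counts therefore cannot be weighed against the array. In 5 of the 10 genes the NEUROG2 arrays lay above the control arrays without overlap, against 8.11% of named genes. Counted as probe sets, 7 of 20 rose, against 3.3% of all probe sets. The median log2 fold change was 0.56 over the 10 genes and 0.01 over all named genes. The 10 genes were chosen with earlier results of these data known. These shares and medians therefore describe the list and are no test of it. In sorted cells measured in bulk, more cells of a type and more RNA per cell cannot be told apart.

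**Figure D1:**
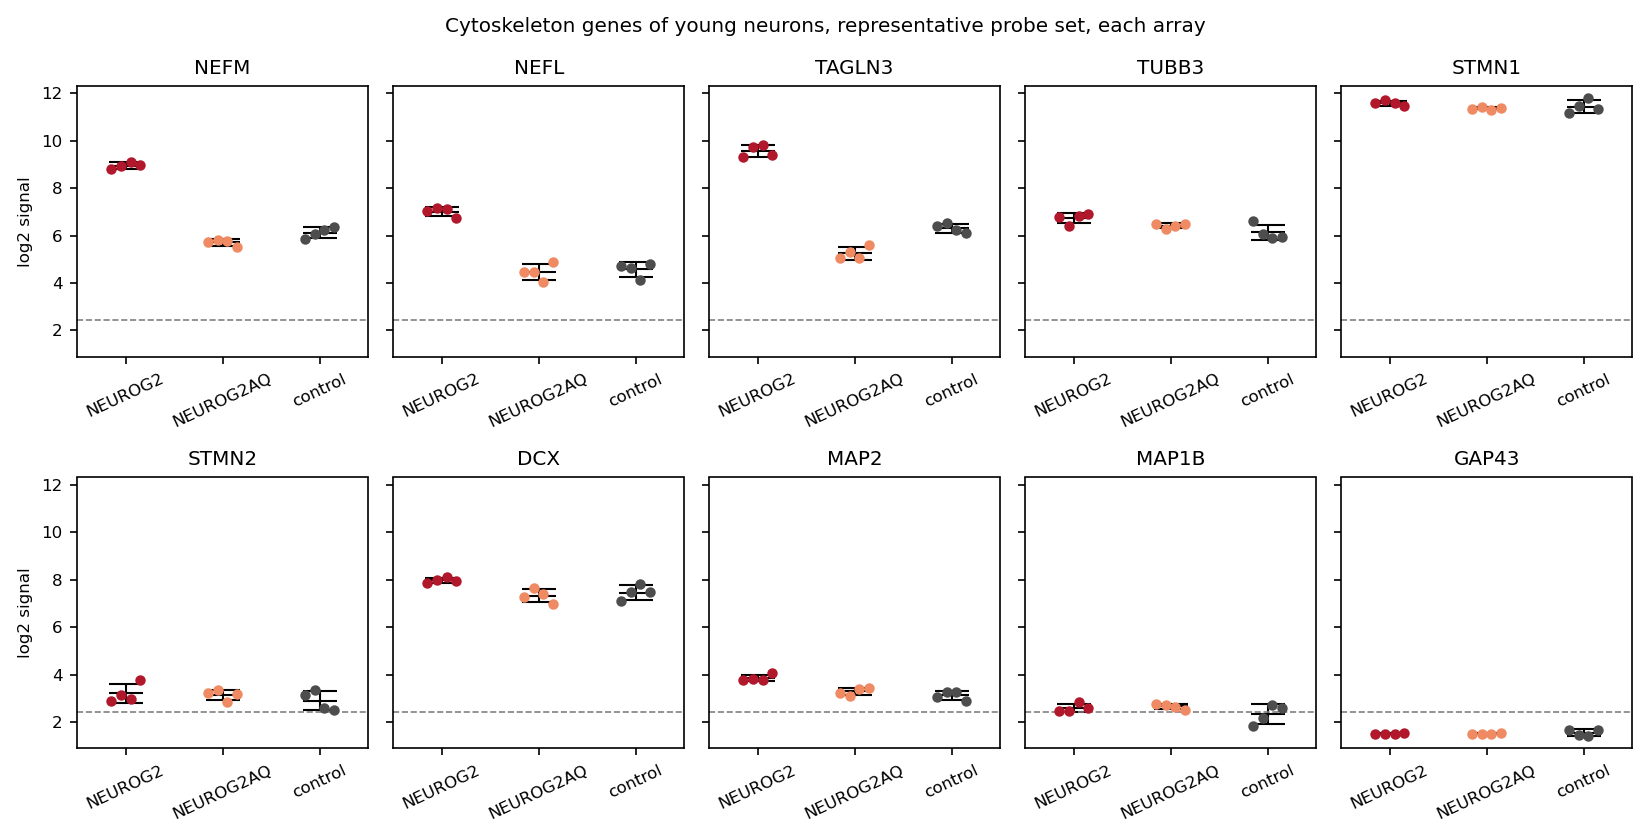
Log2 signal of the representative probe set of each gene (y axis) in the 4 NEUROG2, 4 NEUROG2AQ and 4 control arrays (x axis); each point is an array, bars are mean ± SD, and the dashed line at 2.43 is the highest background level of any array. NEFM, NEFL and TAGLN3 stand well apart in NEUROG2 arrays, TAGLN3 is lower in NEUROG2AQ than in control arrays, and GAP43 lies below the background level; levels cannot be compared between genes, since each probe set has its own brightness.

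NEFM, the medium neurofilament subunit, had log2 signals of 8.80, 8.92, 9.11 and 9.00 in NEUROG2 arrays, 5.72, 5.83, 5.76 and 5.53 in NEUROG2AQ arrays, and 5.87, 6.05, 6.25 and 6.36 in control arrays. The NEUROG2 arrays lay more than 2 log2 units above every other array, and no NEUROG2AQ array reached the lowest control. NEUROG2 minus control was 2.83 ± 0.12 on the log2 scale (SE, n = 4 arrays a group, limma adjusted p = 3.63e-09). NEUROG2AQ minus control was -0.42 ± 0.12 and did not pass (limma adjusted p = 0.385, unadjusted p = 0.00309), although the groups did not overlap.

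The other NEFM probe sets moved in the same direction. One had means of 7.85 ± 0.22 in NEUROG2, 4.89 ± 0.28 in NEUROG2AQ and 5.24 ± 0.19 in control arrays (SD, n = 4 each), a NEUROG2 minus control difference of 2.61 ± 0.15 (SE). The third, the dimmest, averaged 4.06 ± 0.21, 3.61 ± 0.08 and 3.51 ± 0.15 in the same groups and rose by 0.55 ± 0.12. Its change was thus far smaller on the log2 scale than that of its gene's brighter probe sets. For NEUROG2 against control, the size of the NEFM change therefore differed between probe sets, while all 3 rose, and their average rose by 1.996. For NEUROG2AQ minus control the differences were -0.42 and -0.35 for the brighter probe sets and 0.10 for the dimmest, and none passed.

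NEFL, the light subunit, had log2 signals of 7.05, 7.15, 7.12 and 6.73 in NEUROG2 arrays. It had 4.48, 4.48, 4.04 and 4.87 in NEUROG2AQ arrays, and 4.73, 4.63, 4.12 and 4.81 in control arrays. NEUROG2 arrays lay apart from the other groups, which overlapped each other throughout. The log2 difference was 2.44 ± 0.18 for NEUROG2 minus control (limma adjusted p = 4.16e-07) and -0.10 ± 0.18 for NEUROG2AQ minus control (95% interval -0.48 to 0.28, limma adjusted p = 0.955). NEFL and NEFM are neighbouring protein-coding genes in the RefSeq annotation of assembly GRCg7b, with no other protein-coding gene between them. NEFH, the heavy subunit, had log2 means of 1.74 in NEUROG2 and 1.69 in control arrays, below the background level, and its difference of 0.05 ± 0.11 did not pass (limma adjusted p = 0.886).

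The background level used here is the 95th percentile, on each array, of 689 probe sets for sequences other than chicken transcripts, which was 2.29 to 2.43. All 12 arrays exceeded it for the representatives of NEFM, NEFL, TAGLN3, TUBB3, STMN1, STMN2, DCX and MAP2. For MAP1B 10 of 12 arrays did, and for GAP43 none.

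TAGLN3, a calponin-family protein of neurons that binds actin and microtubules, moved in opposite directions with the 2 proteins. Its log2 signals were 9.33, 9.76, 9.82 and 9.41 in NEUROG2 arrays, 5.04, 5.29, 5.07 and 5.62 in NEUROG2AQ arrays, and 6.38, 6.55, 6.22 and 6.09 in control arrays. The 3 groups did not overlap at all. NEUROG2 minus control was 3.27 ± 0.15 (limma adjusted p = 5.67e-09), rank 6 of 13008 named genes from the highest. NEUROG2AQ minus control was -1.06 ± 0.15 (limma adjusted p = 0.0161), a fold of 0.481 with a 95% interval of 0.384 to 0.603.

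With NEUROG2AQ, TAGLN3 was the only 1 of the 10 genes to pass against control, and it fell. None of the 10 rose (limma, with 0 higher and 2 lower at an unadjusted p under 0.05). Of all named genes, 0.0154% rose and 0.0923% fell at the adjusted threshold. NEFM and TAGLN3 were lower without overlap in NEUROG2AQ arrays, which held for 2.7% of named genes. The TAGLN3 call ended without NEUROG2AQ replicate 1, 2 or 3, without control replicate 2 or with only the arrays of both groups in the fit, at adjusted p of 0.0503 to 0.0783, while its value stayed between -0.96 and -1.18 over all alternatives. The 3' minus 5' signal averaged 1.95 ± 0.29 in NEUROG2AQ and 1.80 ± 0.12 in control arrays (SD, n = 4 each, two-sided exact permutation p = 0.4, and 0.514 after adjustment over 3 comparisons). With 4 arrays a group that permutation test can give no p below 0.0286 before adjustment. It therefore had little power and does not show that the groups were alike. With the 3' minus 5' signal as a covariate the TAGLN3 call remained. The call also remained without control replicate 1 and NEUROG2AQ replicate 4. That NEUROG2AQ array, at 5.62, was the one nearest to the controls for TAGLN3. The NEUROG2AQ arrays kept were those with the highest 3' minus 5' signal, so leaving it out is not a test of RNA quality.

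Between the 2 proteins, TAGLN3, NEFM and NEFL stood apart furthest of the 10 genes. TAGLN3 was 20.0-fold higher in NEUROG2 than in NEUROG2AQ arrays (log2 4.32 ± 0.15), NEFM 9.48-fold (3.25 ± 0.12) and NEFL 5.83-fold (2.54 ± 0.18), with limma adjusted p of 2.18e-10, 3.05e-10 and 1.95e-07. TAGLN3 had rank 2 of 13008 named genes from the highest in this comparison. By their representatives, 5 of the 10 genes were higher with NEUROG2 and 0 lower (5 and 0 at an unadjusted p under 0.05), against 5.55% of named genes higher and 4.14% lower. They were TAGLN3, NEFM, NEFL, MAP2 and DCX, and the count was also 5 without control replicate 1 and NEUROG2AQ replicate 4. In 6 genes, these and STMN1, the groups did not overlap, against 9.26% of named genes. For STMN1 the difference was only 0.23 ± 0.12 (limma adjusted p = 0.393), and its other probe set overlapped, at -0.04 ± 0.11. The NEUROG2 and NEUROG2AQ comparisons share their control arrays, so their values are given side by side only.

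**Figure D2:**
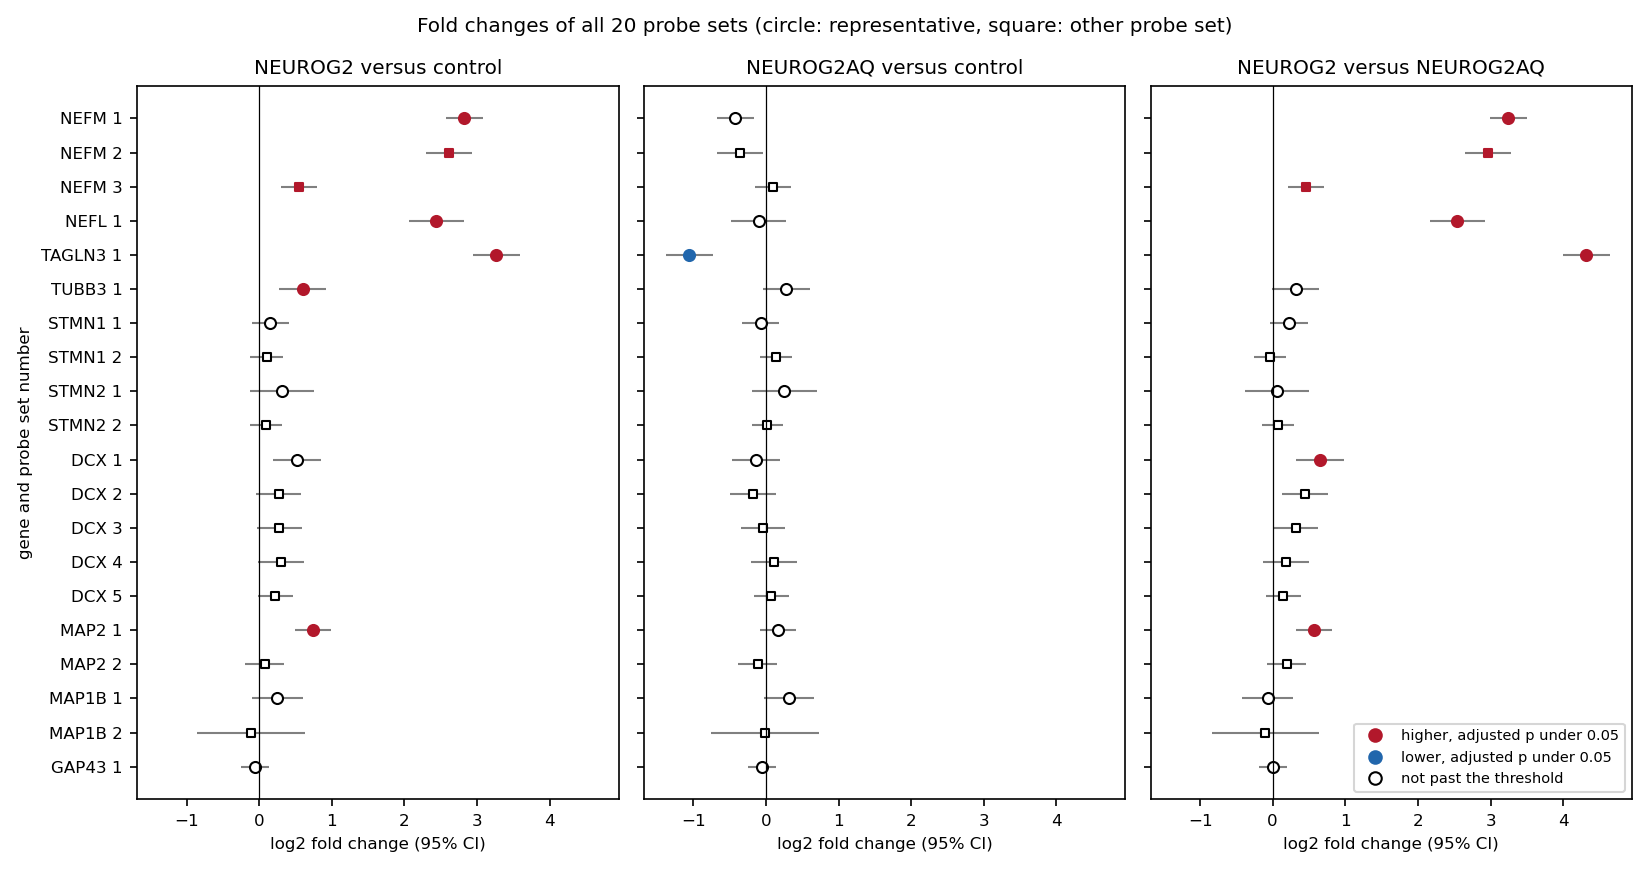
Log2 fold change with its 95% confidence interval (x axis) for each of the 20 probe sets (y axis, numbered from the brightest of each gene) in NEUROG2 versus control, NEUROG2AQ versus control and NEUROG2 versus NEUROG2AQ; circles are representatives, squares other probe sets, and filled symbols passed an adjusted p of 0.05. The 3 NEFM probe sets, NEFL, TAGLN3, TUBB3 and MAP2 were higher with NEUROG2 than in controls, and TAGLN3 alone was lower with NEUROG2AQ.

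MAP2 stabilises microtubules and is known for its place in dendrites. The representative had log2 signals of 3.77, 3.80, 3.79 and 4.07 in NEUROG2 arrays. It had 3.24, 3.10, 3.38 and 3.42 in NEUROG2AQ arrays, and 3.04, 3.25, 3.27 and 2.90 in control arrays. Every NEUROG2 array lay above every array of the other groups. NEUROG2 minus control was 0.74 ± 0.12 (limma adjusted p = 0.000767), and NEUROG2AQ minus control 0.17 ± 0.12 (adjusted p = 0.848). The signal lay within 2 log2 units of background, so the size of the change is uncertain. The other MAP2 probe set averaged 2.03 ± 0.16, 1.84 ± 0.08 and 1.95 ± 0.26 in NEUROG2, NEUROG2AQ and control arrays, under the background level everywhere, and differed by 0.08 ± 0.13 without passing.

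TUBB3 encodes the β-tubulin isotype used as a marker of young neurons. Its only probe set read 6.79, 6.41, 6.82 and 6.90 in NEUROG2 arrays, 6.50, 6.26, 6.40 and 6.48 in NEUROG2AQ arrays, and 6.62, 6.07, 5.89 and 5.95 in control arrays on the log2 scale. NEUROG2 replicate 2 lay below control replicate 1, so these groups overlapped, while the other controls lay below every NEUROG2 array. The NEUROG2AQ arrays lay among both groups. The log2 difference was 0.60 ± 0.15 for NEUROG2 minus control (limma adjusted p = 0.0264), 0.28 ± 0.15 for NEUROG2AQ minus control (adjusted p = 0.795) and 0.32 ± 0.15 for NEUROG2 minus NEUROG2AQ (95% interval -0.01 to 0.64, adjusted p = 0.318). The call against control ended without NEUROG2 replicate 1, 3 or 4, without control replicate 2, 3 or 4 and with only the arrays of both groups in the fit, at adjusted p up to 0.0916. It remained in the other 16 of 23 alternatives. Over all alternatives the difference was 0.52 to 0.76, with limma adjusted p down to 0.000898. The identifier of this probe set ends in _x_at, Affymetrix's mark for probes that may bind other transcripts, so the signal cannot be assigned to TUBB3 alone among the tubulins.

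DCX, doublecortin, binds microtubules in migrating young neurons. Its representative had log2 signals of 7.85, 7.99, 8.12 and 7.93 in NEUROG2 arrays, 7.26, 7.63, 7.40 and 6.99 in NEUROG2AQ arrays, and 7.09, 7.46, 7.82 and 7.46 in control arrays. All NEUROG2 arrays were above the rest, by little over the highest control. Against control the difference of 0.52 ± 0.15 missed the threshold (limma adjusted p = 0.0604), with a 95% interval of 0.19 to 0.84. It passed without control replicate 3 (0.64, adjusted p = 0.0195), without NEUROG2AQ replicate 4 (0.0401) and under 7 other settings. Against NEUROG2AQ the difference was 0.65 ± 0.15 (adjusted p = 0.0168). That call ended without NEUROG2 replicate 3 (adjusted p = 0.0637), NEUROG2AQ replicate 1 (0.0533) or NEUROG2AQ replicate 4 (0.0545). The other 4 DCX probe sets differed by 0.22 to 0.29 between NEUROG2 and control arrays without passing, and for 2 of them only 1 and 0 of the 12 arrays were above background.

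Stathmins bind tubulin dimers and drive microtubule disassembly. STMN1 is used by dividing cells as well as neurons, and STMN2 is the form of growing axons. STMN1 had a bright and even signal, with log2 values of 11.45 to 11.71 in NEUROG2, 11.31 to 11.41 in NEUROG2AQ and 11.16 to 11.79 in control arrays. NEUROG2 minus control was 0.15 ± 0.12 (limma adjusted p = 0.6, 95% interval -0.10 to 0.41), and its other probe set differed by 0.10 ± 0.11. The STMN2 representative read 2.90 to 3.78 in NEUROG2, 2.83 to 3.34 in NEUROG2AQ and 2.52 to 3.33 in control arrays, and its other probe set was below background in all 12. The STMN2 difference of 0.31 ± 0.21 did not pass (adjusted p = 0.509), and its interval of -0.13 to 0.76 leaves a 1.69-fold increase possible.

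MAP1B, an early axonal microtubule-binding protein, and GAP43, a membrane protein of growth cones, had signals near or below background, up to 3.74 for a MAP1B probe set and 1.68 for GAP43. The MAP1B representative had log2 signals of 2.45 to 2.84 in NEUROG2, 2.52 to 2.76 in NEUROG2AQ and 1.84 to 2.73 in control arrays. Its other probe set varied more within the control group, from 1.70 to 3.74, than between groups. NEUROG2 minus control was 0.25 ± 0.16 for the first (limma adjusted p = 0.498) and -0.11 ± 0.35 for the second (adjusted p = 0.925). GAP43 read 1.48 to 1.54 in NEUROG2, 1.48 to 1.52 in NEUROG2AQ and 1.41 to 1.68 in control arrays, and no change was detectable at this signal.

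Other genes of the microtubule and filament cytoskeleton were read from a list of 111, of which 89 were measured. With NEUROG2, 8 rose, 2 fell and 79 did not pass against control (limma, with 17 higher and 12 lower at an unadjusted p under 0.05). Over the array, 5.21% of named genes rose and 5.37% fell at the adjusted threshold, and no share was taken at the unadjusted level. The median log2 fold change of the 89 was 0.01, as over all named genes. With NEUROG2AQ, 0 of the 89 passed (2 higher and 5 lower at an unadjusted p under 0.05). Without control replicate 1 and NEUROG2AQ replicate 4, 17 of the 89 passed for NEUROG2 against control in place of 10. Calls also rose over the whole array in that setting, from 2515 to 3682 of 37693 probe sets. The 5 member genes above passed as before.

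**Figure D3:**
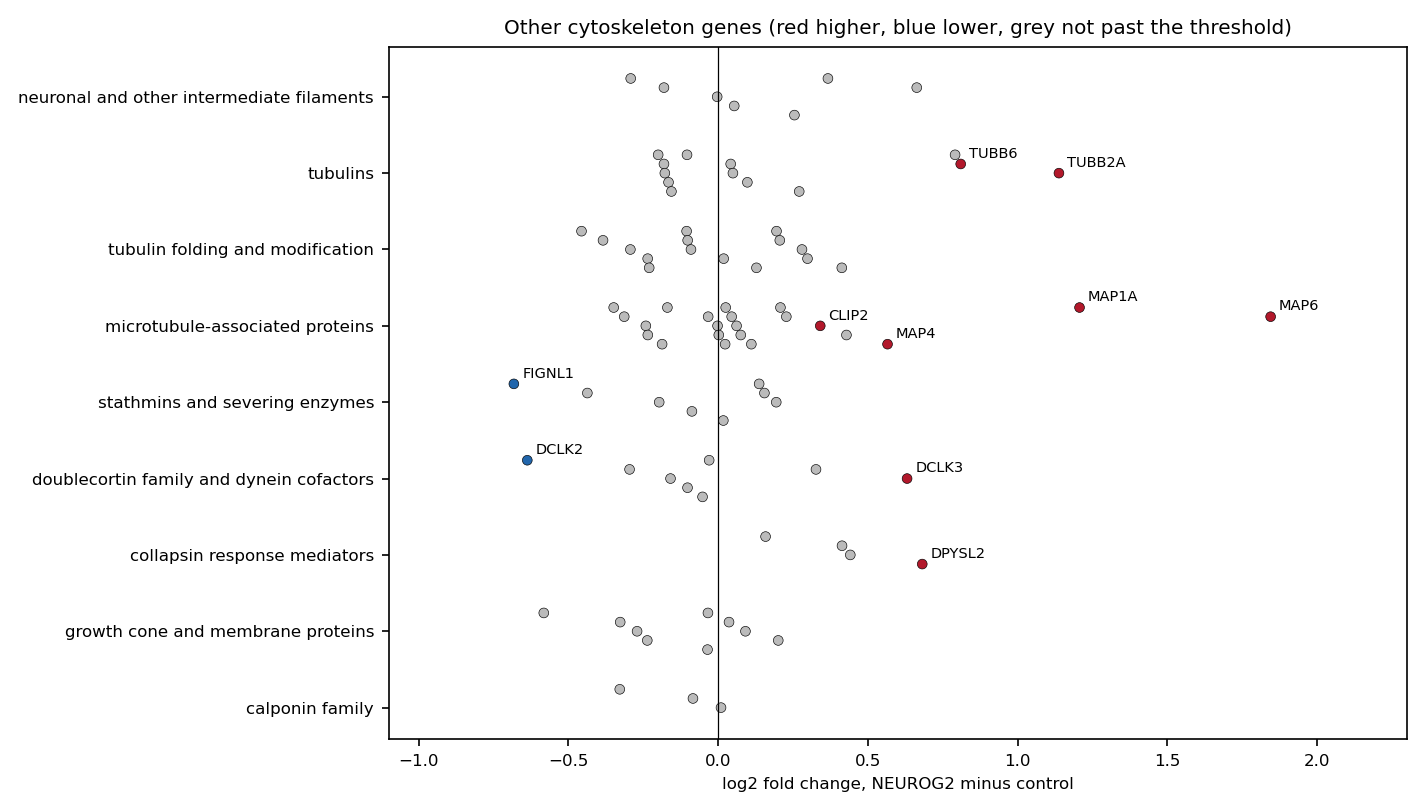
Log2 fold change of NEUROG2 minus control (x axis) for 89 other cytoskeleton genes in 9 subgroups (y axis), 1 point per gene by its representative probe set, red where it rose, blue where it fell and grey where it did not pass. Most genes lie near 0, with MAP6, MAP1A and TUBB2A furthest to the right and FIGNL1 and DCLK2 on the left.

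Among 22 measured microtubule-associated proteins 4 rose and 0 fell (5 and 0 at an unadjusted p under 0.05 in limma). MAP6, which stabilises microtubules against cold and drugs, had log2 signals of 8.19, 8.34, 8.34 and 7.88 in NEUROG2, 5.78, 6.31, 6.04 and 5.95 in NEUROG2AQ, and 6.32, 6.24, 6.64 and 6.17 in control arrays. It stood 3.59-fold higher with NEUROG2 than in control (log2 1.84 ± 0.14, limma adjusted p = 7.29e-07), and 3 of its 4 probe sets rose. The remaining MAP6 probe set averaged 1.41 in NEUROG2 and 1.20 in control arrays, below background. MAP1A, the relative of MAP1B found in mature neurons, averaged 7.17 ± 0.22 in NEUROG2, 5.85 ± 0.26 in NEUROG2AQ and 5.96 ± 0.45 in control arrays (SD, n = 4 each). It rose by 1.21 ± 0.20 (adjusted p = 0.000972), with 3 of its 8 probe sets passing, and the average of its probe sets rose by 0.49 and passed. Several of the MAP1A probe sets that did not pass had means below background. MAP4, the MAP of dividing and non-neuronal cells (0.57 ± 0.12), and the plus-end linker CLIP2 (0.34 ± 0.09) rose less, each by 1 probe set of 7 and of 5. Averaged over their probe sets, MAP4 (0.18, adjusted p = 0.289) and CLIP2 (0.16, adjusted p = 0.155) did not pass, and the CLIP2 call also ended without any single NEUROG2 array or without control replicate 2, 3 or 4.

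Of 13 measured tubulins 2 rose and 0 fell (4 and 0 at an unadjusted p under 0.05 in limma). TUBB2A, a β-tubulin abundant in neurons, read 8.13, 8.21, 7.80 and 8.20 in NEUROG2, 6.72, 7.06, 7.28 and 7.35 in NEUROG2AQ, and 7.27, 6.95, 6.93 and 6.64 in control arrays. It rose by 1.14 ± 0.16 on the log2 scale (limma adjusted p = 0.000232). Its other probe set did not pass, with means of 1.39 in NEUROG2 and 1.27 in control arrays, below background. TUBB6 rose by 0.81 ± 0.19 (adjusted p = 0.0168), a call lost without NEUROG2 replicate 4 (0.0524). TUBAL3 missed the threshold against control (0.79 ± 0.23, limma adjusted p = 0.0594), with overlapping groups, and passed under 7 of 23 alternatives. TUBAL3 was higher in NEUROG2 than in NEUROG2AQ arrays (1.21 ± 0.23, limma adjusted p = 0.00417), a call that remained in all 23. TUBB2B, another β-tubulin of neurons and their progenitors, had means of 10.09 in NEUROG2 and 10.05 in control arrays and did not pass (0.05 ± 0.11, adjusted p = 0.89). Tubulins are closely similar in sequence, so probe sets of 1 isotype may bind others.

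Among 4 collapsin response mediators DPYSL2, which promotes microtubule assembly in growing axons, rose by 0.68 ± 0.10 (limma adjusted p = 0.00035). Its log2 signals were 9.40 to 9.54 in NEUROG2, 8.89 to 9.24 in NEUROG2AQ, and 8.73 to 8.94 in control arrays, with no overlap between NEUROG2 and the rest. Of 8 measured doublecortin relatives and dynein cofactors, DCLK3 rose by 0.63 ± 0.13, with means of 2.74 in NEUROG2 and 2.11 in control arrays and 7 of 12 arrays above background. DCLK2 fell by 0.64 ± 0.18. The DCLK2 call (adjusted p = 0.0482) ended under 16 of 23 alternatives, among them leaving out any 1 array other than NEUROG2 replicate 1. Of 8 stathmin and severing genes FIGNL1, a fidgetin-family ATPase, fell by 0.68 ± 0.10 (adjusted p = 0.00035), with means of 6.63 in NEUROG2 and 7.31 in control arrays. Only 1 of its 3 probe sets passed, and NEUROG2 minus control was -0.17 and -0.0018 for the others. Its call remained in all 23 alternatives, with differences of -0.71 to -0.28.

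None of the 7 other intermediate filament genes, 15 genes of tubulin folding and modification, 9 growth cone and membrane genes or 3 calponin-family genes passed for NEUROG2 against control with all arrays. Without control replicate 1, however, NES, nestin (0.52, adjusted p = 0.0243), and LMNB1, a nuclear lamin (-0.45, adjusted p = 0.0358), did pass in limma, and VIM, vimentin, passed with trend and robust (0.25, adjusted p = 0.0405). At an unadjusted p under 0.05 in limma, 3, 1, 0 and 0 of them were higher and 0, 5, 2 and 1 lower. With 5.21% of named genes higher and 5.37% lower by adjusted p, lists this short could hold no call without differing from the array. TAGLN, the smooth muscle relative of TAGLN3, had means of 5.33 in NEUROG2 and 5.32 in control arrays (0.01 ± 0.11, limma adjusted p = 0.981).

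**Figure D4:**
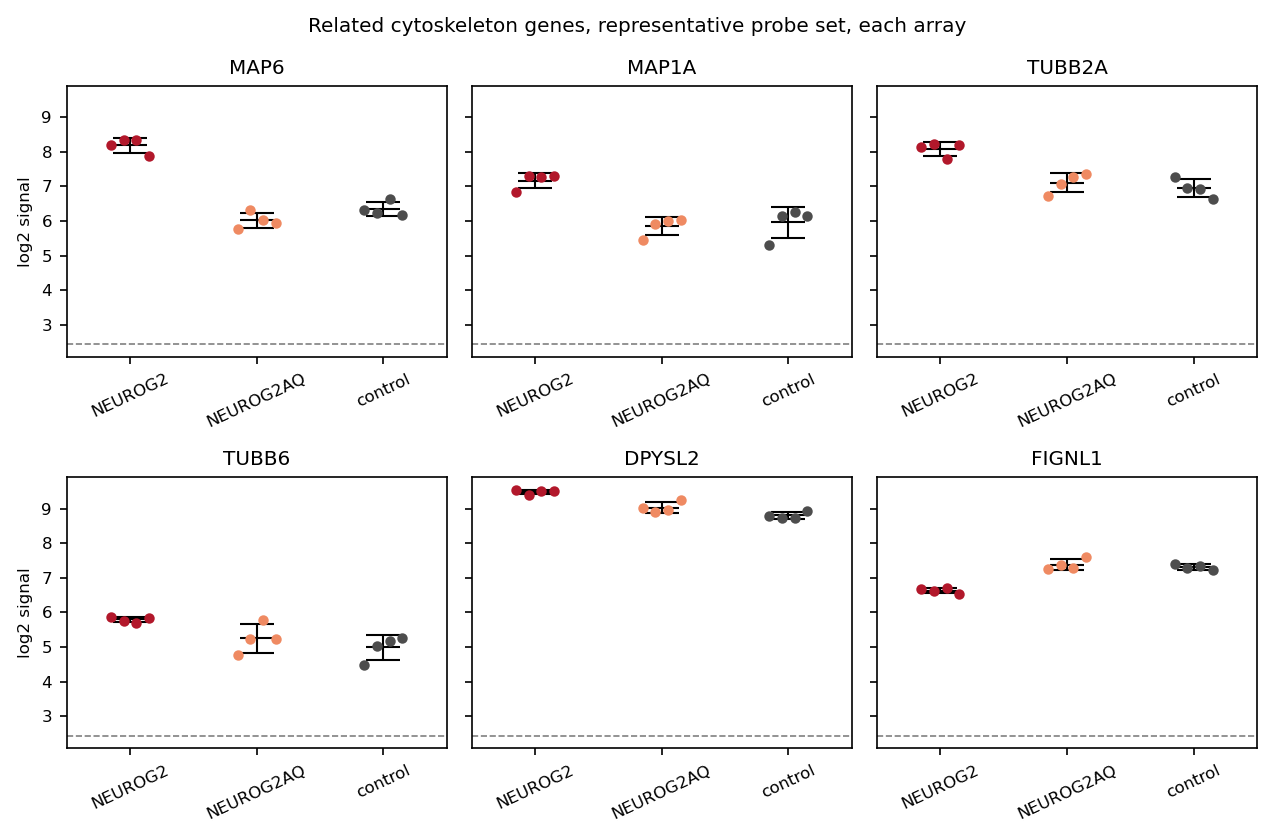
Log2 signal (y axis) of 6 related cytoskeleton genes in the 4 NEUROG2, 4 NEUROG2AQ and 4 control arrays (x axis), with points for arrays, bars for mean ± SD and a dashed line at the background level of 2.43. NEUROG2 arrays of MAP6, MAP1A, TUBB2A, TUBB6 and DPYSL2 lie above the control arrays, and those of FIGNL1 below.

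The genes whose pattern was most like those of NEFM, NEFL and TAGLN3 were found by the root-mean-square difference of log2 signals, each centred on its own mean over the 12 arrays, among 9321 other named genes of at least median signal. For NEFM they were BAMBI, a decoy receptor of TGF-β and BMP signalling (0.17 log2 units), NEURL1, a ubiquitin ligase gene of the Neuralized family (0.23), and RASD2, a small GTPase (0.23). For NEFL they were P3H2, a collagen prolyl hydroxylase (0.25), GRM7, a metabotropic glutamate receptor (0.25), and SMIM5 (0.26). For TAGLN3 they were BPIFB2 (0.28), TNFAIP2 (0.37) and TMEM140 (0.38). NEFM and NEFL differed from each other by 0.44, NEFM and TAGLN3 by 0.53, and NEFL and TAGLN3 by 0.76. These distances were chosen as the smallest and are given as a description. The signal limit was not applied to each group, so a gene could meet it by its NEUROG2 arrays. SMIM5 had 4.24 to 5.08 in NEUROG2 arrays but 1.70 to 2.28 in control arrays, below background. Its likeness to NEFL among the control arrays therefore cannot be judged. RASD2 and TMEM140 were near background in NEUROG2AQ arrays, at 2.28 to 2.77 and 2.14 to 2.47. BAMBI had 10.11, 10.31, 10.65 and 10.25 in NEUROG2, 6.70, 6.93, 7.09 and 6.59 in NEUROG2AQ, and 7.40, 7.32, 7.43 and 7.47 in control arrays. Like NEFM, it thus lay lower in every NEUROG2AQ than in every control array, as did 2.7% of named genes. Its NEUROG2AQ minus control difference of -0.58 did not pass, with limma adjusted p of at least 0.104 over the alternatives. BAMBI was chosen for its likeness to NEFM over these same arrays.

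**Figure D5:**
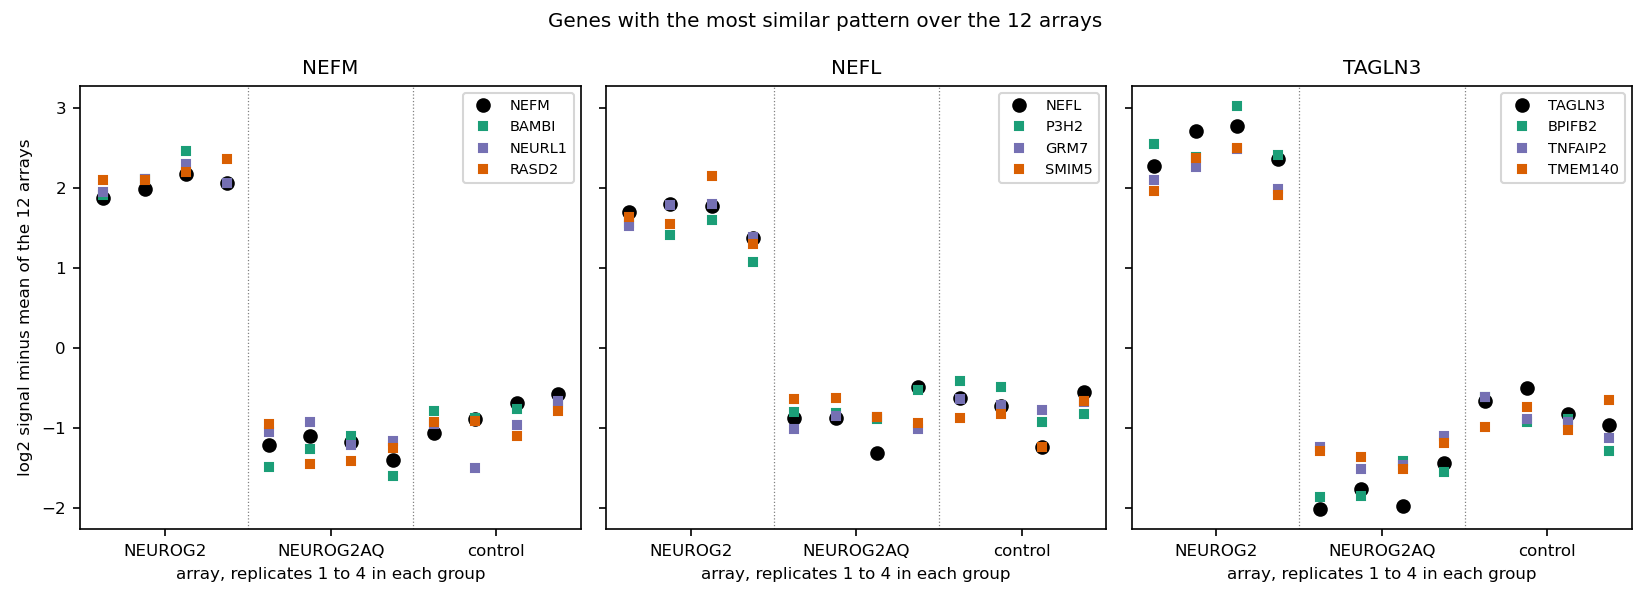
Log2 signal minus each gene's mean over the 12 arrays (y axis) for NEFM, NEFL and TAGLN3 (black circles) and the 3 genes closest to each (coloured squares) in every array, by group (x axis). Each set lies high in the 4 NEUROG2 arrays, and around TAGLN3 most NEUROG2AQ points lie below the control points, with some overlap for TNFAIP2.

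Markers place these changes beside those of the tissue. All 14 measured neural tube progenitor markers were above background in all 12 arrays, and 7 fell with NEUROG2 against control. With NEUROG2AQ 0 of the 14 passed against control. Only 3 were lower in NEUROG2 than in NEUROG2AQ arrays, against 4.14% of named genes. The mean log2 signal of the 14 was 7.67 to 7.88 in NEUROG2, 7.94 to 8.04 in NEUROG2AQ and 8.38 to 8.43 in control arrays. Of 10 measured neuron markers 4 rose: NHLH1 (2.56), LHX1 (0.84), NEUROD4 (0.49, above background in 9 of 12 arrays) and ELAVL4 (0.44). SYT1 (0.44), ELAVL2 (-0.10) and NCAM1 (-0.10) did not pass, and NEUROD1, ISL1 and SNAP25 were under background in every array. The mean signal of the 10 was 3.76 to 3.91 in NEUROG2, 3.24 to 3.34 in NEUROG2AQ and 3.27 to 3.37 in control arrays. Of 12 neural crest markers 6 fell with NEUROG2, with means of 5.08 to 5.35 in NEUROG2, 5.73 to 6.03 in NEUROG2AQ and 5.73 to 6.06 in control arrays. Of 13 somite and muscle markers 0 passed, with means of 2.91 to 3.24 in NEUROG2, 2.66 to 3.04 in NEUROG2AQ and 2.91 to 3.79 in control arrays. Among the remaining lists, 1 each of 8 notochord and floor plate, 12 blood and endothelial and 6 surface ectoderm markers fell, and 0 of 2 sensory placode and 10 endoderm and lateral plate markers passed. The blood and endothelial marker was FLT1, with means of 1.25 in NEUROG2 and 1.74 in control arrays, under background in every array. Over the array, 5.21% of named genes rose and 5.37% fell with NEUROG2 by the same rule. The part of other cell types in the changes above was not tested.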

How the data were processed

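Per the labels, 12 arrays of sorted neural tube cells were used, each from 50 ng of total RNA. The deposited log2 signals per probe set were used as the authors made them. Per the submitters' processing notes the tools were GCOS, RMA and affy, with no versions or order given. The labels give no base for the logarithm, and base 2 was inferred from the range of 0.49 to 13.97. Of 38535 probe sets, 37693 with chicken identifiers were tested. Names came from the platform annotation, updated by gene identifier with RefSeq of GRCg7b.

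All arrays were fitted in limma 3.58.1 (R 4.3.3) with group as the only term (9 residual degrees of freedom), with two-sided tests. Precision is limited by 4 arrays a group. The fit was tested on simulated data. The members, lists, tests and the rule for naming genes were chosen with earlier results of these data known. The rule names all members, and per related subgroup up to 4 genes past the threshold for NEUROG2 against control with the largest change. NEFH, NES, VIM, LMNB1, KATNA1, TUBAL3, TUBA3E, TUBB2B, CNN2, TAGLN and the marker genes were named after their values were seen, as was the background level chosen. Marker lists covered progenitors, neurons, neural crest, sensory placodes, somites and muscle, surface ectoderm, endoderm and lateral plate, notochord and floor plate, and blood with endothelium. Probe sets ending in _s_at may bind several transcripts. The 23 alternatives per comparison changed the array set, scaling, variance model, probe set choice or block. Leaving out control replicate 1 with NEUROG2AQ replicate 4, and the 3' minus 5' covariate, were chosen after the data were seen. No sequences were used.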

Additional observations from a re-analysis of the deposited data

Results flagged for a closer look

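Over 60 sets of 4 arrays (20 probe sets in 3 groups), an array was set apart from its own group in 3, by a gap to the nearest array above Dixon's 95% critical value. Chance alone sets apart about 1 in 20 such sets. The NEFM probe set of middle brightness read 4.47 in NEUROG2AQ replicate 4, below the other NEUROG2AQ arrays at 5.01 to 5.05. The MAP2 representative read 4.07 in NEUROG2 replicate 4, above the other NEUROG2 arrays at 3.77 to 3.80. The dimmer MAP2 probe set read 2.34 in control replicate 1, above the other controls at 1.79 to 1.88 and at background.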

How the results depend on the processing

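The calls of NEFM, NEFL, TAGLN3 and MAP2 for NEUROG2 against control and against NEUROG2AQ remained in all 23 alternatives, with adjusted p of at most 0.0292. For NEUROG2 against control 2515 probe sets passed, 1579 with 1 probe set per gene and 1438 with each gene's probe sets averaged, where 13008 genes were tested. For NEUROG2 against NEUROG2AQ 2286 passed, and 1442 and 1315 under the same settings. For NEUROG2AQ against control 25 passed, 14 with probe sets averaged, 8 with only the arrays of both groups, 44 with trend and robust, and 10 to 30 leaving out 1 array. Its count of member genes was 1, 0 with only the arrays of both groups, and 0 to 1 leaving out 1 array. The cause was not tested. No called member changed direction. Signal near background limits STMN2, MAP1B, GAP43 and MAP2. The labels tie no replicate number to a shared batch, and not every same-numbered pair correlated above 0.1, so the numbers were not taken as a pairing. Same-numbered arrays correlated in their deviations by -0.02 to 0.23 for NEUROG2 and control, -0.30 to 0.20 for NEUROG2AQ and control and -0.11 to 0.16 for NEUROG2 and NEUROG2AQ, and 6, 1 and 2 of 8 arrays correlated best with their own number, which for NEUROG2 and control is a hint of pairing from the data. With the replicate block 2463, 28 and 2249 probe sets passed in these comparisons and 6, 1 and 5 members, DCX (adjusted p = 0.0332) being the member added and no other member call changing. Among related genes for NEUROG2 against control, the block ended the calls of CLIP2 (adjusted p = 0.0554) and DCLK2 (0.05) and added KATNA1 (0.0356) and TUBAL3 (0.0256). For NEUROG2 against NEUROG2AQ it ended those of TUBA3E (0.0548) and VIM (0.0624).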

Other observations

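Among the 89 related genes, 10 were higher and 5 lower in NEUROG2 than in NEUROG2AQ arrays (limma), against 5.55% and 4.14% of all named genes. The count of 15 became 9 without NEUROG2 replicate 3 or without NEUROG2AQ replicate 1. Calls over the whole array also fell in these settings, from 2286 probe sets to 1744 and 1822. The filament genes of progenitors were among the 15 and were named after their values were seen. NES, nestin, had log2 signals of 9.47, 9.81, 9.63 and 9.46 in NEUROG2, 8.86, 8.86, 8.78 and 9.01 in NEUROG2AQ, and 9.70, 9.35, 8.78 and 9.08 in control arrays. It was higher by 0.72 ± 0.16 in NEUROG2 than in NEUROG2AQ arrays (limma adjusted p = 0.0113) and differed from control by 0.37 ± 0.16 without passing (adjusted p = 0.24). Without control replicate 1 the difference from control was 0.52 and passed (adjusted p = 0.0243), as it did without NEUROG2AQ replicate 4 in addition (adjusted p = 0.0224). VIM, vimentin, was higher by 0.35 ± 0.09 in NEUROG2 than in NEUROG2AQ arrays (adjusted p = 0.0348), a call that ended under 8 of 23 alternatives. Of the 5 lower genes, the calls of KATNA1, TUBA3E, LMNB1 and CNN2 ended under 13, 9, 7 and 6 of 23, and that of FIGNL1 remained in all. With the 3' minus 5' signal as a covariate, 14 passed in limma. KATNA1 (adjusted p = 0.113), LMNB1 (0.104) and VIM (0.125) were lost, and DCLK2 (0.0259) and DCLK3 (0.0341) were added.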
